A study of Mus musculus with 16 samples.

Results

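The 32 genes described here encode neuropeptide precursors, granins and enzymes of the dense-core secretory pathway. They were chosen as a list of symbols with earlier results of these data known, so their counts beside the shares of all genes are descriptions. Those with at least 10 counts in at least 2 libraries were kept, and all 32 passed, out of 26371 gene symbols present in both deposited count tables. The list holds 11 peptide precursors typical of cortical interneurons, 9 other peptide precursors, 1 peptide-binding protein, 6 granins and 5 processing genes.

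Neuropeptides are made as inactive precursors that enter the secretory pathway and are packed with granins into dense-core vesicles. Inside these vesicles, prohormone convertases cut the precursors at pairs of basic residues, carboxypeptidase E trims the exposed ends, and peptidylglycine alpha-amidating monooxygenase adds the terminal amide that many peptides need. In cortex most peptide precursors are made by sparse classes of inhibitory interneurons, while granins and processing enzymes are made by most neurons. Transcription of several of these genes, among them Vgf, Scg2 and Sst, is known to respond to electrical activity and cyclic AMP.

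RNA came from primary cortical neurons of C57/BL6 mouse embryos taken at embryonic day 17.5 to 19.5, with the cortices of a litter pooled as 1 replicate. All cultures received an adeno-associated virus (AAV) carrying a short hairpin RNA on day 8 in vitro and were collected on day 13, and the study asked which genes depend on Nup153, a nucleoporin of the nuclear basket. At basal state, with no drug, 4 libraries with the control hairpin (shControl), 2 with the hairpin shNup153_1 and 2 with the hairpin shNup153_2 were used. The labels list 16 samples, among them a replicate 3 of each hairpin at basal state, which were not analysed here because 2 columns share 1 name and neither could be given to a sample. Silenced cultures were also treated with tetrodotoxin at 1 to 2 µM for 24 hours, which blocks action potentials, and with D-AP5 at 100 µM for 6 hours, which blocks NMDA receptors, with 3 libraries for shControl and 3 for shNup153_2. Which promoter drives the hairpins was not given in the sources used here. Per the labels, samples went on to sequencing where the knockdown was sufficient, and the text describing the knockdown samples names the control virus where their titles name the hairpin. Groups follow the titles.

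Total counts were 26863535 to 56299817 in the 14 libraries, and levels are CPM values, counts scaled to TMM-adjusted library totals on 1 scale for all libraries. Nup153 (chromosome 13, 46679905 to 46727940 in mm10, as are all positions here) stood at 52.9 to 94.5 CPM in basal shControl, 17.1 and 28 CPM with shNup153_1, 11.6 and 13.5 CPM with shNup153_2, 52.1 to 64.2 CPM in silenced shControl and 9.38 to 13.4 CPM in silenced shNup153_2. Summed CPM of 10 excitatory neuron markers ranged from 993.6 to 3420 over all libraries, that of 28 interneuron markers without peptides from 1504 to 3814, that of 9 astrocyte markers from 237 to 2900, and that of 3 microglia markers was at most 1.566. In bulk RNA such as this, fewer cells of a type and less RNA per cell cannot be told apart.

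The basal shControl libraries were not alike. Replicates 2 and 4 stood above replicates 1 and 3 for several members, with Cck at 129 and 155 CPM against 53.6 and 60.8 CPM, Vip at 30.4 and 30.3 CPM against 9.87 and 12.0 CPM, and Chga at 388 and 310 CPM against 166 and 131 CPM. In silenced cultures, both replicates numbered 2 stood apart, with Vip at 14.1 CPM (shControl) and 14.2 CPM (shNup153_2) against 0.245 to 1.71 CPM in the other 4. The summed astrocyte markers also divided these libraries, at 2488 and 1667 CPM in basal shControl replicates 1 and 3 against 441.9 and 1145 CPM in replicates 2 and 4, and at 1172 and 1317 CPM in the silenced replicates numbered 2 against 237 to 482.6 CPM in the other 4. The part of astrocyte content in the members' values was not tested. The basal hairpin comparisons are therefore also given without shControl replicates 1 and 3 or 2 and 4. Unblocked comparisons with silenced cultures are also given without both silenced libraries numbered 2. The comparison of states was not fitted without these pairs of basal libraries, nor the blocked fit without the silenced libraries numbered 2.

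Per kilobase of exon, the processing enzyme gene Cpe had the highest mean level in basal shControl, 607.1 CPM per kilobase (478.7 to 745.1 over 4 libraries), which overlaps the range of Sst, the somatostatin precursor, at 282.4 (110.2 to 536.9). Pcsk1n, which encodes an inhibitor of prohormone convertase 1, followed at 114.2, and Scg5, Chga, Npy, Chgb, Cck and Scg3 lay between 70.09 and 91.27 with ranges that overlapped. Pam held 19.48 CPM per kilobase with the narrow range of 18.66 to 20.11. At the bottom, Adcyap1, Cartpt, Trh and Pomc lay between 0.5092 and 1.003, and Pcsk1, the gene of prohormone convertase 1, stood at 1.425 (1.016 to 1.874). The spread from Pomc to Cpe thus covered 3 powers of 10, and the interneuron peptides were found from near the top of the order to near its lower end.

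**Figure D1:**
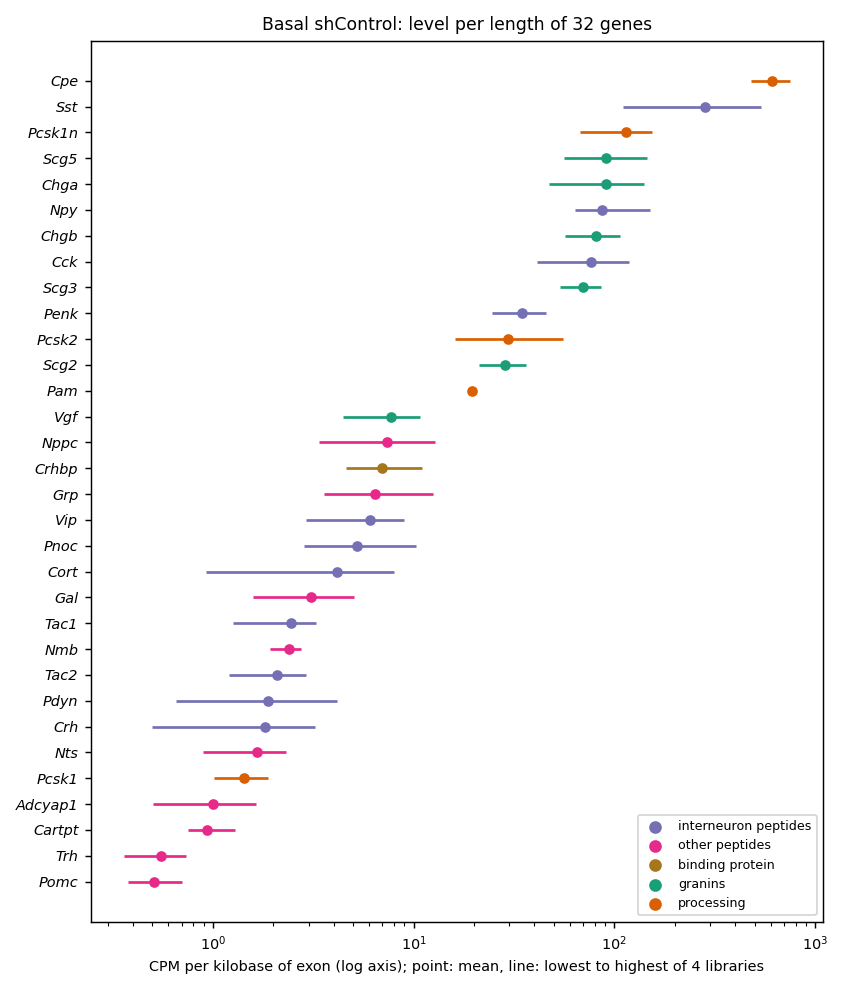
Levels of the 32 genes in basal shControl libraries, in CPM per kilobase of exon on a log axis, with the mean as a point and the lowest to highest of 4 libraries as a line, coloured by role. Cpe is highest at 607.1 and Pomc lowest at 0.5092.

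At basal state the first question was how the members responded to each hairpin against the same control libraries. With shNup153_1, 5 of 32 members rose (Tac2, Pomc, Vgf, Scg2 and Pcsk1) and 3 fell (Gal, Cartpt and Nppc) at a Benjamini-Hochberg (BH) adjusted p under 0.05 (FDR) in edgeR's quasi-likelihood test. The same test called 6.52% of 14529 genes higher and 7.05% lower. The median log2 fold change was 0.32 over the members and -0.02 over all genes tested. With shNup153_2, 5 of 32 rose (Adcyap1, Vgf, Scg2, Pcsk1 and Pam) and 2 fell (Gal and Scg3), against 5.91% of 19682 genes called higher and 3.64% lower. The medians were -0.05 and -0.03. Both comparisons use the same 4 shControl libraries, so they are not independent of each other.

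**Figure D2:**
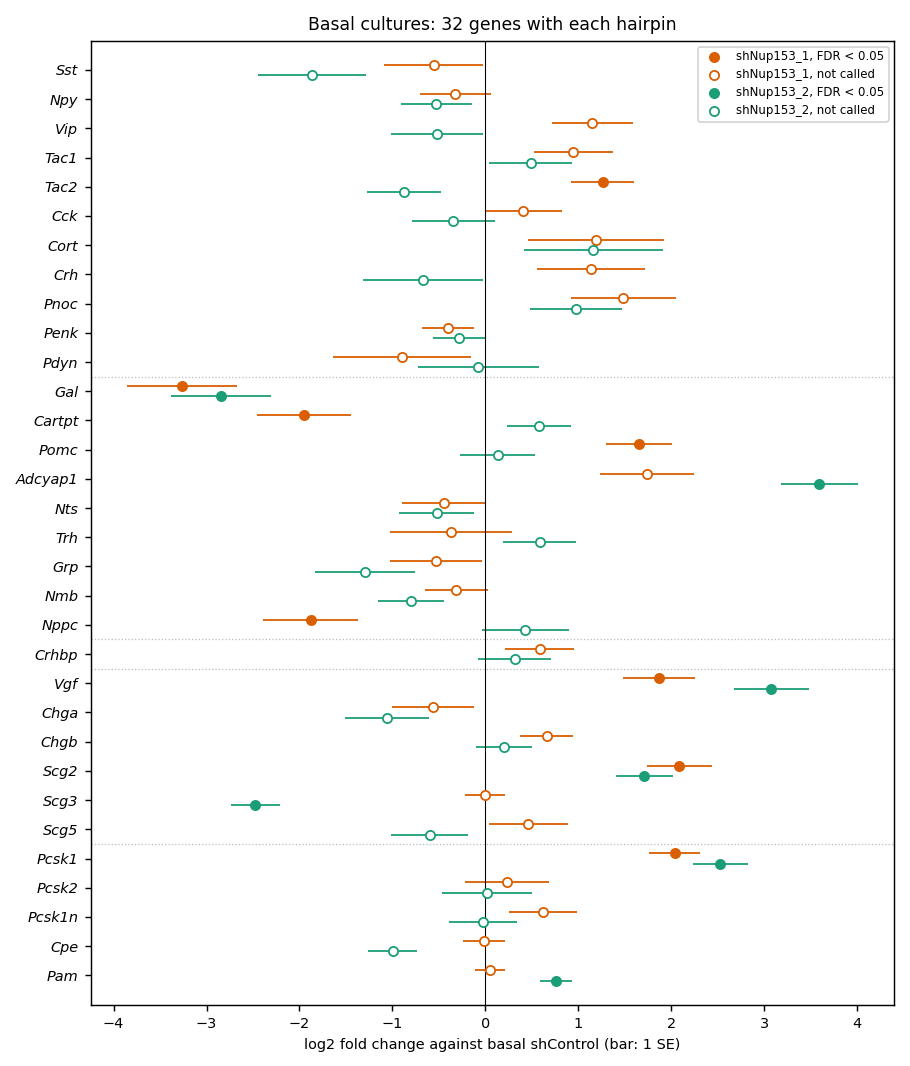
Log2 fold change (x axis) of the 32 genes with shNup153_1 (orange) and shNup153_2 (green) against the 4 shared basal shControl libraries, with bars of 1 SE and filled points for FDR under 0.05. Vgf, Scg2 and Pcsk1 lie to the right of 0 and Gal to the left with each hairpin, while Scg3 lies at -0.00 with shNup153_1 and at -2.47 with shNup153_2.

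Among the granins, Vgf and Scg2 stood higher with each hairpin. Vgf (chromosome 5, 137026392 to 137033351, plus strand), a granin-like precursor of several secreted peptides, was at 13.3, 18.9, 32 and 27.8 CPM in shControl, at 80.3 and 90.1 CPM with shNup153_1 and at 121 and 276 CPM with shNup153_2. All 4 knockdown libraries lay above all 4 controls, and the 2 shNup153_2 libraries differed from each other more than the 2 shNup153_1 libraries did. The log2 fold change was 1.86 (SE 0.39, edgeR BH-adjusted p = 0.0172), a factor of 3.64, with shNup153_1 and 3.08 (SE 0.40, edgeR BH-adjusted p = 0.00633), a factor of 8.45, with shNup153_2. Scg2 (chromosome 1, 79434669 to 79440120, minus strand), the precursor of secretoneurin, was at 54.8, 53.2, 91.4 and 87.4 CPM in shControl, at 412 and 210 CPM with shNup153_1 and at 177 and 303 CPM with shNup153_2. Again no control library reached any knockdown library. Its log2 fold changes were 2.09 (SE 0.35, edgeR BH-adjusted p = 0.00802) and 1.71 (SE 0.30, edgeR BH-adjusted p = 0.0157).

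Pcsk1 (chromosome 13, 75089826 to 75134861, plus strand), whose product is the convertase that makes the first cuts in many precursors, also stood higher with each hairpin. It was at 6.11, 10.5, 5.69 and 9.63 CPM in shControl, at 36.0 and 30.7 CPM with shNup153_1 and at 39.9 and 54.4 CPM with shNup153_2, so the groups did not overlap. The log2 fold changes were 2.04 (SE 0.27, edgeR BH-adjusted p = 0.0038) and 2.53 (SE 0.30, edgeR BH-adjusted p = 0.00506), factors of 4.11 and 5.77. The other convertase gene, Pcsk2, ranged from 128 to 438 CPM in shControl and from 225 to 323 CPM in the 4 knockdown libraries, within the control range. Its log2 fold changes were 0.24 and 0.02, and neither passed the test.

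**Figure D3:**
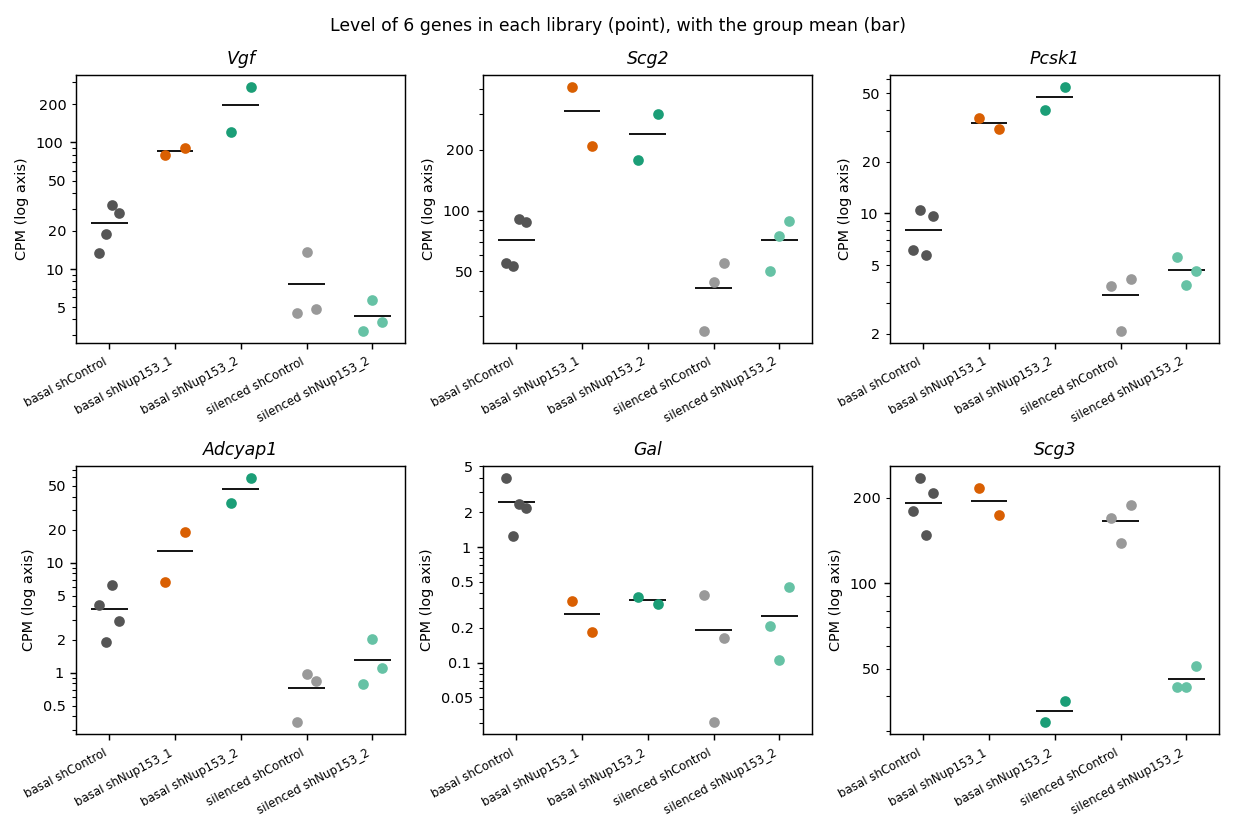
CPM (log axis) of 6 genes in each of the 14 libraries (points) with group means (bars), by group. Vgf, Scg2, Pcsk1 and Adcyap1 are higher in basal knockdown than in basal shControl libraries, Gal is lower, and Scg3 is low in the basal and silenced shNup153_2 libraries only.

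Of the other granins, Scg3 (chromosome 9, 75643189 to 75684056, minus strand), which encodes secretogranin III, a binding partner of chromogranin A on the granule membrane, fell with shNup153_2. It was at 179, 234, 147 and 207 CPM in shControl, at 215 and 174 CPM with shNup153_1 and at 32.3 and 38.4 CPM with shNup153_2. The shNup153_1 libraries lay inside the control range and the shNup153_2 libraries far below it. The log2 fold change with shNup153_2 was -2.47 (SE 0.26, edgeR BH-adjusted p = 0.00475), and with shNup153_1 it was -0.00 (SE 0.22, edgeR BH-adjusted p = 0.992). Chga, Chgb and Scg5 ranged from 131 to 388, 156 to 293 and 88.5 to 228 CPM in shControl, and none passed with either hairpin. Their log2 fold changes lay between -1.06 and 0.66.

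Among the other processing genes, Pam (chromosome 1, 97795114 to 98095646, minus strand) was at 222 to 239 CPM in shControl, at 231 and 258 CPM with shNup153_1 and at 377 and 427.5 CPM with shNup153_2. Both shNup153_2 libraries lay above all others, with a log2 fold change of 0.76 (SE 0.17, edgeR BH-adjusted p = 0.0333), while with shNup153_1 the value was 0.05 (SE 0.16, edgeR BH-adjusted p = 0.868). Cpe was at 1528, 1617, 1249 and 1944 CPM in shControl and at 743 and 883 CPM with shNup153_2, which did not overlap. Its log2 fold change of -0.996 (SE 0.26) just missed the threshold (edgeR BH-adjusted p = 0.0512), and limma-voom and DESeq2 called it lower. Pcsk1n had log2 fold changes of 0.62 and -0.03, and neither passed. Part of its exons (6.2%) is shared with Eras on the opposite strand, and whether counting used strand was not given in the sources used here.

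Peptide precursors moved in both directions. Adcyap1 (chromosome 17, 93199017 to 93206537, plus strand), the precursor of the peptide PACAP, was at 4.11, 1.90, 6.23 and 2.92 CPM in shControl, at 6.63 and 19.2 CPM with shNup153_1 and at 34.8 and 58.9 CPM with shNup153_2. The lower shNup153_1 library stood just above the highest control, and both shNup153_2 libraries stood above every other library. With shNup153_2 the log2 fold change was 3.60 (SE 0.41, edgeR BH-adjusted p = 0.005), a factor of 12.1. With shNup153_1 it was 1.74 (SE 0.51, edgeR BH-adjusted p = 0.0545), and DESeq2 called that rise. Gal (chromosome 19, 3409915 to 3414544, minus strand), the galanin precursor, was at 3.96, 1.25, 2.37 and 2.17 CPM in shControl, at 0.339 and 0.184 CPM with shNup153_1 and at 0.371 and 0.319 CPM with shNup153_2. All knockdown libraries lay below all controls, on 6 to 16 counts each. The log2 fold changes were -3.26 (SE 0.59, edgeR BH-adjusted p = 0.0102) and -2.85 (SE 0.54, edgeR BH-adjusted p = 0.019).

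Further precursors passed with shNup153_1. Tac2, the neurokinin B precursor, was at 1.66 to 4.01 CPM in shControl and at 7.04 and 6.97 CPM with shNup153_1 (1.27 on the log2 scale, SE 0.34, edgeR BH-adjusted p = 0.0421). Pomc, the precursor of melanocortins and beta-endorphin, was at 0.500 to 0.932 CPM in shControl and at 2.49 and 1.78 CPM with shNup153_1 (1.65, SE 0.36, edgeR BH-adjusted p = 0.0196). Neither group pair overlapped. Cartpt, the CART peptide precursor, was at 0.964 to 1.65 CPM in shControl and at 0.151 and 0.461 CPM with shNup153_1, on 4 and 15 counts (-1.95, SE 0.51, edgeR BH-adjusted p = 0.0382). Nppc, the precursor of C-type natriuretic peptide, was at 3.52 to 13.3 CPM in shControl and at 2.37 and 1.87 CPM with shNup153_1 (-1.88, SE 0.51, edgeR BH-adjusted p = 0.0444). Neither Cartpt nor Nppc overlapped its controls. With shNup153_2 the log2 fold changes of these 4 were -0.88, 0.13, 0.58 and 0.43, and none passed.

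Sst (chromosome 16, 23889573 to 23890958, minus strand) was at 143, 205, 79.5 and 387 CPM in shControl, at 174 and 108 CPM with shNup153_1 and at 56.3 and 58.4 CPM with shNup153_2. The shNup153_2 libraries were below all controls, but the controls themselves spanned a wide range. The log2 fold change was -1.87 (SE 0.58, edgeR BH-adjusted p = 0.0814) with shNup153_2, which DESeq2 called (adjusted p = 0.00479), and -0.56 with shNup153_1. Of the other interneuron peptides, Npy, Vip, Tac1, Cck, Cort, Crh, Pnoc, Penk and Pdyn passed with neither hairpin. Neither did Nts, Trh, Grp, Nmb and the binding protein gene Crhbp. The largest of these log2 fold changes was 1.48 for Pnoc with shNup153_1, where 1 library held 49.3 CPM and the other 14.7 CPM.

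Whether the hairpins differed was tested directly. Relative to shNup153_1, 1 of 32 members was higher with shNup153_2 (Cartpt, log2 difference 2.53, SE 0.55, edgeR BH-adjusted p = 0.0412) and 2 were lower (Scg3, -2.47, SE 0.26, edgeR BH-adjusted p = 0.00798, and Tac2, -2.14, SE 0.42, edgeR BH-adjusted p = 0.0316). The test called 2.81% of 14529 genes higher and 1.67% lower. For Vgf, Scg2, Pcsk1 and Gal the log2 differences were 1.21, -0.38, 0.49 and 0.41 and did not pass, nor did those of Adcyap1 (1.85, SE 0.62, edgeR BH-adjusted p = 0.116) and Pam (0.71, edgeR BH-adjusted p = 0.0681). DESeq2 called 4 higher (Cartpt, Adcyap1, Nppc and Pam) and 5 lower (Vip, Tac2, Pomc, Scg3 and Cpe). The share of all genes called by DESeq2, or in the fits with a library left out that follow, is not given here. Without shNup153_1 replicate 1, or without either shNup153_2 library, edgeR called no member, and Scg3 had adjusted p of 0.0736, 0.109 (without shNup153_2 replicate 1) and 0.0778 (without replicate 2).

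The basal calls rest on 2 libraries per hairpin. With a hairpin library left out, the share of all genes called is given here for shNup153_2 only. The shNup153_1 counts can therefore not be set against such a share. Without shNup153_2 replicate 1, Adcyap1 and Vgf still passed, while Scg2 and Scg3 stood at an edgeR BH-adjusted p of 0.0767 each, Pcsk1 at 0.056, Gal at 0.176 and Pam at 0.23. Without shNup153_2 replicate 2 no member passed, and Adcyap1, Scg3 and Pcsk1 stood at 0.0741, Vgf at 0.0864, Scg2 at 0.188, Gal at 0.195 and Pam at 0.288. Of all genes, 0.118% were then called higher and 0.00492% lower without replicate 1, and 0.0744% and 0% without replicate 2, and the members' log2 fold changes kept their sign. Without shNup153_1 replicate 1 only Pcsk1 passed, with Vgf at 0.0818, Scg2 at 0.079 and Gal at 0.0645. Without shNup153_1 replicate 2, Pcsk1, Scg2 and Cartpt passed, with Vgf at 0.0727, Gal at 0.0695 and Pomc at 0.0503.

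Leaving out control libraries changed other members. Without shControl replicates 2 and 4, a choice made after seeing the data, 15 members rose with shNup153_1, adding among others Vip, Cck, Chgb, Scg5, Pcsk2 and Pcsk1n, against 8.79% of all genes, and 9 rose with shNup153_2, against 9.83%. Without shControl replicates 1 and 3, chosen likewise, 12 fell with shNup153_2, adding among others Sst, Vip, Cck, Chga, Scg5, Pcsk1n and Cpe, against 23% of all genes, and 4 rose with shNup153_1, against 8.18%. Vgf, Scg2 and Pcsk1 rose and Gal fell with each hairpin under both of these choices. With shNup153_1, Tac2 and Cartpt stood at an edgeR BH-adjusted p of 0.0512 and 0.0548 without shControl replicate 1, and Nppc at 0.0804 without replicate 3. Tac2 was also lost without shControl replicate 2 or 3, Cartpt without replicate 2, 3 or 4, and Nppc without replicate 4. Pam with shNup153_2 was at 0.0506 without shControl replicate 3 and 0.0976 without replicate 4.

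Markers of other cells and of activity moved alongside. The summed level of 28 interneuron markers was 1775 to 2489 CPM in basal shControl, 3253 and 3814 CPM with shNup153_1 and 3081 and 3692 CPM with shNup153_2. Summed oligodendrocyte lineage markers stood at 114 to 285.2 CPM in shControl, 800.4 and 815.1 CPM with shNup153_1 and 254.1 and 381.9 CPM with shNup153_2. Of 17 rapid activity-induced genes, 10 rose with shNup153_1 and 11 with shNup153_2, against 6.52% and 5.91% of all genes called higher. This list, like the other marker lists, was written with earlier results of these data known. The summed level of the 17 genes was 243.3 to 391.8 CPM in shControl and 579 to 949.1 CPM in the 4 knockdown libraries. Summed astrocyte markers stood at 1133 and 2900 CPM with shNup153_1 and at 2235 and 2573 CPM with shNup153_2. Summed excitatory neuron markers stood at 1687 to 2229 CPM in shControl, 993.6 and 1691 CPM with shNup153_1 and 1927 and 2086 CPM with shNup153_2. Of these 10 markers, 1 rose and 2 fell with shNup153_1, and 2 rose and 1 fell with shNup153_2. The shares of all genes called lower were 7.05% and 3.64%. The part of these differences in the members' values was not tested.

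Several members carry a cyclic AMP response element, the palindrome TGACGTCA, close to their RefSeq start. A window from 250 bases before to 50 after the annotated start was found in the RefSeq table (GRCm38.p6) for 26 of 32 members and searched on both strands. The palindrome was in the windows of 5 members, against 2.03% of 27025 genes with a window. The stretches below show it in capitals, 5′ to 3′ on the strand of the gene, because 2 of the genes, Pcsk1 and Scg2, rose with each hairpin and the others did not.
Pcsk1, chr13:75089768-75089797, plus strand: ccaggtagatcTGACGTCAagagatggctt
Scg2, chr1:79440076-79440105, minus strand: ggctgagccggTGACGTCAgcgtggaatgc
Sst, chr16:23890874-23890903, minus strand: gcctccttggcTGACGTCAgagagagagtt
Chgb, chr2:132781559-132781588, plus strand: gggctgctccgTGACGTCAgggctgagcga
Cartpt, chr13:99900777-99900806, minus strand: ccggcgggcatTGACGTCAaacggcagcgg

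Counted to the start in the RefSeq table, the last base of the palindrome lay 71 bases before the start of Pcsk1, 61 before Scg2, 41 before Sst, 65 before Chgb and 105 before Cartpt. The GENCODE gene spans begin further upstream for all 5 genes. The stretches of Scg2, Sst, Chgb and Cartpt lie inside these spans, and only that of Pcsk1 lies outside. The shorter core TGACG, which the palindrome contains, was in 18 of 26 member windows and in 23% of genes with a window, and Gal and Adcyap1 are among the 18. The 5 genes with the palindrome had unlike values with shNup153_2, with log2 fold changes of 2.53, 1.71, -1.87, 0.20 and 0.58 in the order above. A match is a description of the letters and not a bound site. Crh, Pnoc, Penk, Grp, Vgf and Cpe have no window in the table.

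The next question was how the control cultures differed between states. Relative to basal shControl, 14 of 32 members were lower in silenced shControl cultures and 0 were higher, against 6.27% of 20926 genes called lower and 6.09% called higher in the same edgeR fit. The median log2 difference was -1.25 over the members and -0.03 over all genes tested, and 20 members had an unadjusted p under 0.05. DESeq2 called 17 lower and 0 higher, and limma-voom 14 and 0. The shares of all genes called by DESeq2 and limma-voom are not given here, so these counts cannot be set against them. State goes together with the deposited table and with separate cultures, so the drugs and other differences between the sets of cultures cannot be told apart.

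By role, 5 of 11 interneuron peptides were lower (Sst, Npy, Tac1, Crh and Penk), as were 5 of 9 other peptides (Gal, Cartpt, Adcyap1, Nts and Nppc), the binding protein Crhbp, 1 of 6 granins (Vgf) and 2 of 5 processing genes (Pcsk1 and Pam). Sst stood at 79.5 to 387 CPM at basal state and at 27.6, 40.2 and 27.5 CPM under silencing (log2 difference -2.73, SE 0.43, edgeR BH-adjusted p = 0.00305), a factor of 6.65. Tac1, the substance P precursor, stood at 4.29, 6.70, 11.1 and 11.1 CPM against 0.531, 1.19 and 0.764 CPM (-3.37, SE 0.47, edgeR BH-adjusted p = 0.00153). Crhbp, which binds and buffers corticotropin-releasing hormone, stood at 8.34, 12.3, 9.65 and 19.8 CPM against 0.737, 2.10 and 0.245 CPM (-3.66, SE 0.63, edgeR BH-adjusted p = 0.0044). In all 3 every silenced library was below every basal one.

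Npy was at 40.4, 35.9, 35.9 and 84.7 CPM at basal state and at 21.7, 25.7 and 16.9 CPM under silencing (-1.25, SE 0.30, edgeR BH-adjusted p = 0.0197). Penk, the enkephalin precursor, was at 40.2 to 74.8 CPM against 17.7, 39.2 and 14.7 CPM (-1.30, SE 0.33, edgeR BH-adjusted p = 0.026), with silenced replicate 2 close to the lowest basal library. Exons of Penk overlap the opposite-strand gene A830012C17Rik over 14.3% of their length. Crh, the corticotropin-releasing hormone precursor, was at 0.659 to 4.27 CPM against 0.0884, 0.518 and 0.0273 CPM, on 3, 17 and 1 counts (-3.57, SE 0.96, edgeR BH-adjusted p = 0.0322). These silenced levels are all lower than the basal ones, with the smallest gaps for Penk and Crh.

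Among the other peptides, Gal was at 1.25 to 3.96 CPM at basal state and at 0.383, 0.0305 and 0.164 CPM under silencing, on 13, 1 and 6 counts (-3.70, SE 0.66, edgeR BH-adjusted p = 0.00485). Cartpt was at 0.964 to 1.65 CPM against 0.147, 0.0609 and 0.191 CPM, on 5, 2 and 7 counts (-3.17, SE 0.66, edgeR BH-adjusted p = 0.0106). Nppc was at 3.52 to 13.3 CPM against 0.855, 0.731 and 0.764 CPM (-3.34, SE 0.44, edgeR BH-adjusted p = 0.00121). None of these groups overlapped, and the sizes for Gal and Cartpt rest on few counts. Adcyap1 was at 1.90 to 6.23 CPM against 0.354, 0.975 and 0.845 CPM (-2.44, SE 0.48, edgeR BH-adjusted p = 0.00873). Nts, the neurotensin precursor, was at 1.11 to 2.89 CPM against 0.501, 0.609 and 0.164 CPM (-2.35, SE 0.52, edgeR BH-adjusted p = 0.0143).

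Vgf, Pcsk1 and Pam were the granin and processing genes that passed. Vgf was at 13.3 to 32 CPM at basal state and at 4.45, 13.7 and 4.85 CPM under silencing, so silenced replicate 2 overlapped the lowest basal library (-1.64, SE 0.45, edgeR BH-adjusted p = 0.0359). Pcsk1 was at 5.69 to 10.5 CPM against 3.77, 2.07 and 4.15 CPM, without overlap (-1.31, SE 0.30, edgeR BH-adjusted p = 0.0155). Pam was at 222 to 239 CPM against 202, 164 and 139 CPM and was at the threshold itself (-0.51, SE 0.15, edgeR BH-adjusted p = 0.04999). Chga, Chgb, Scg3, Scg5, Pcsk2, Pcsk1n and Cpe had log2 differences between -0.29 and 0.48 and did not pass, and Scg2 was at -0.84 (edgeR BH-adjusted p = 0.0989).

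**Figure D4:**
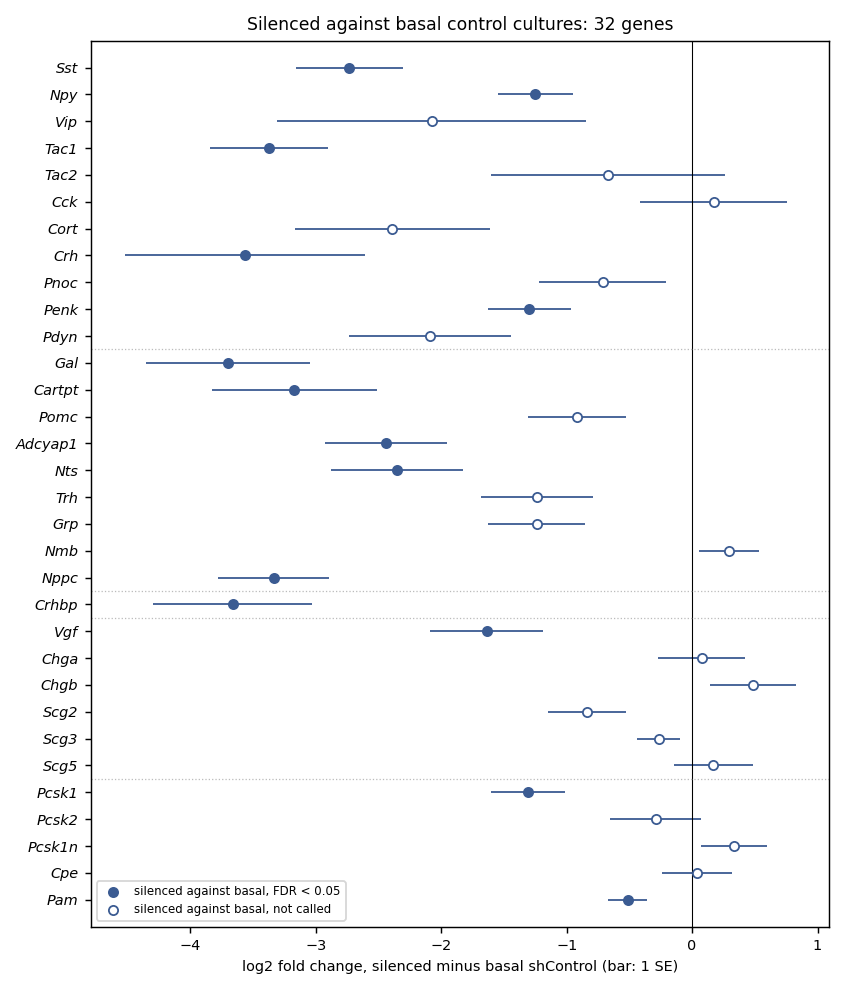
Log2 difference (x axis) of silenced minus basal shControl cultures for the 32 genes, ordered by role with dotted lines between roles, bars of 1 SE and filled points for FDR under 0.05. The 14 filled points all lie below 0, and most granins and processing genes lie between -1 and 1.

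Some of these calls depended on single libraries. Sst, Tac1, Gal, Cartpt, Adcyap1, Nppc, Crhbp and Pcsk1 passed with each of the 7 shControl libraries left out in turn. Without silenced shControl replicate 1 the count fell to 9 and without replicate 3 to 8, where Npy stood at 0.0737 and 0.0862, Crh at 0.126 and 0.111, Penk at 0.115 and 0.102, Nts at 0.0521 and 0.0555 and Vgf at 0.143 and 0.14. Without basal shControl replicate 3, Penk stood at 0.0704 and Vgf at 0.0899, and without replicate 4 Crh, Penk and Vgf stood at 0.0565, 0.0589 and 0.0735. Pam was lost without any 1 of 6 libraries, at 0.0574 to 0.211. Without both silenced libraries numbered 2, chosen after seeing the data, 14 members were lower, now with Vip and without Pam. The share of all genes called in each of these fits is not given here. A lower count can therefore not be read as particular to the members.

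Of 28 interneuron markers other than peptides, 11 were also lower in silenced shControl cultures and 0 were higher, with 18 at an unadjusted p under 0.05 and a median log2 difference of -0.87. Reln was at -2.27 (SE 0.36, edgeR BH-adjusted p = 0.00315), Gad1, a GABA-synthesizing enzyme, at -1.57 (SE 0.25, edgeR BH-adjusted p = 0.00334) and Dlx5 and Gad2 at -1.47 and -0.95. Their summed level was 1504 to 1590 CPM against 1775 to 2489 CPM at basal state. Of 17 rapid activity-induced genes 4 were lower, among them Fos (-3.06, SE 0.71, edgeR BH-adjusted p = 0.0174). Other cell types differed in the same comparison, where 6.09% of all genes were called higher and 6.27% lower. Of 10 excitatory neuron markers 2 were higher (Cux2 at 1.73 and Neurod2 at 0.95) and 2 lower (Fezf2 at -2.35 and Slc17a6 at -0.82). Of 9 astrocyte markers 1 was lower (Gfap, -5.96, SE 1.53) with a list median of -1.46, of 12 oligodendrocyte lineage markers 3 were higher (Pdgfra at 3.67, Sox10 at 3.88 and Mag at 3.38) with a median of 1.01, and of 10 vascular and fibroblast markers 3 were lower (Flt1, Kdr and Rgs5) and 1 higher (Pecam1). Summed astrocyte markers were 237 to 1172 CPM against 441.9 to 2488 CPM at basal state. The part of any of these sets in the members' values was not tested.

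Within silenced cultures, the knockdown was compared with its own controls for 29 members, since Crh, Gal and Cartpt were too low to be tested. Only Scg3 passed, and it fell, against 1.83% of 18965 genes called lower and 1.61% called higher. It was at 170, 138 and 189 CPM in shControl and at 43.0, 43.1 and 51.2 CPM with shNup153_2 (-1.83 on the log2 scale, SE 0.15, edgeR BH-adjusted p = 0.00633), a factor of 3.56 with no overlap. Unblocked, 7 members had an unadjusted p under 0.05. DESeq2 called Pdyn and Pcsk2 higher and Scg3 lower, and limma-voom only Scg3. The Scg3 call stood at an edgeR BH-adjusted p of 0.0656 without shNup153_2 replicate 1 and of 0.0518 without shControl replicate 1. Without both silenced libraries numbered 2, chosen after seeing the data, Scg3 was again the only member called.

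Libraries with the same number in the 2 silenced groups deviated together, so a second fit took that number as a block. The blocked fit called 7 members higher and 4 lower, against 11.7% of 18965 genes higher and 10.3% lower. Pdyn, the dynorphin precursor, was at 1.18, 2.01 and 0.791 CPM in shControl and at 5.30, 6.66 and 1.73 CPM with shNup153_2 in the same order of numbers, higher in 3 of 3 pairs. Its log2 fold change was 1.81 (SE 0.55, edgeR BH-adjusted p = 0.132) unblocked and 1.73 (SE 0.24, edgeR BH-adjusted p = 0.00323) with the block. Scg2 was at 25.3, 44.2 and 55.2 CPM against 49.9, 74.8 and 88.7 CPM, higher in each pair (0.80 and edgeR BH-adjusted p = 0.222 unblocked, 0.83 and 0.00125 with the block). Pcsk2 was at 225, 228 and 142 CPM against 383, 368 and 337 CPM (0.89 and edgeR BH-adjusted p = 0.0539 unblocked, 0.92 and 0.00207 with the block). Cck, Grp, Chgb and Pcsk1n rose by 0.27, 0.50, 0.41 and 0.26 in the blocked fit.

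**Figure D5:**
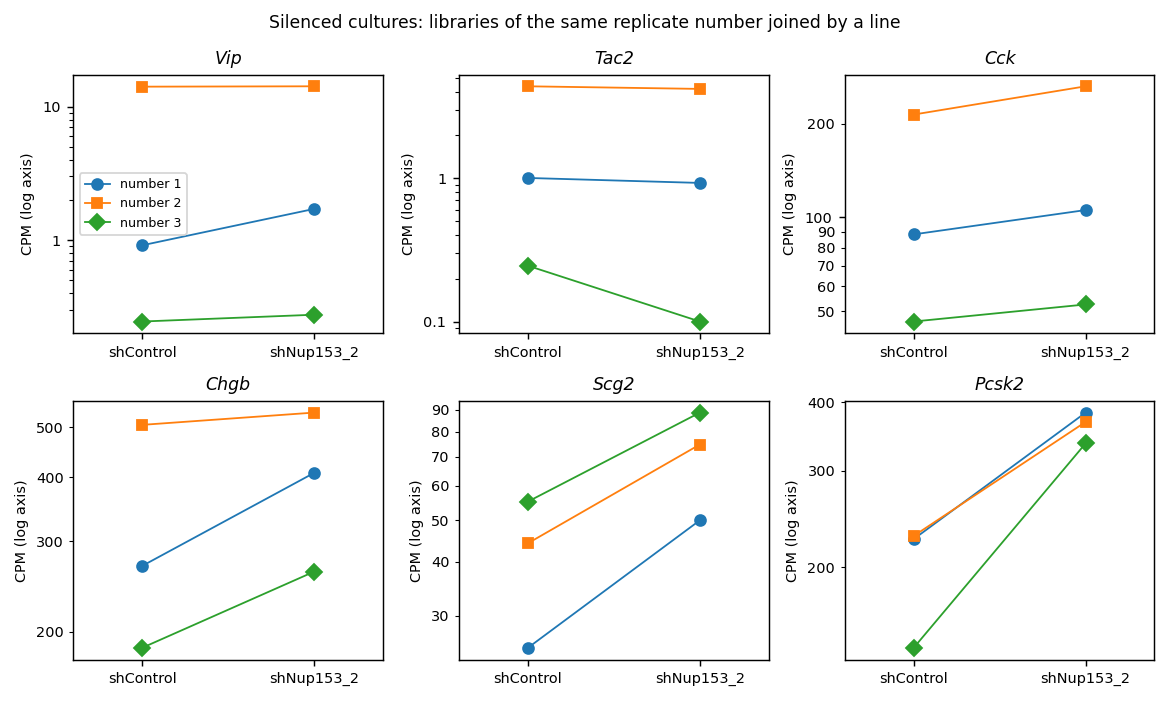
CPM (log axis) of 6 genes in silenced shControl and shNup153_2 libraries, with libraries of the same replicate number joined. For Vip and Tac2 the numbers differ more than the hairpins do, and for Cck, Chgb, Scg2 and Pcsk2 the knockdown library is higher in each of the 3 pairs.

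The members lower with the block were Scg3 (-1.83, SE 0.08), Cpe, Scg5 and Vgf. Cpe was at 1725, 2199.6 and 1143 CPM in shControl and at 864, 1289 and 611.5 CPM with shNup153_2, lower in each pair (-0.85 and edgeR BH-adjusted p = 0.214 unblocked, -0.87 and 0.00116 with the block). Scg5, which encodes the convertase 2 chaperone 7B2, was at 154, 216 and 131 CPM against 91.1, 141 and 104 CPM (-0.55 and edgeR BH-adjusted p = 0.246 unblocked, -0.54 and 0.00648 with the block). Vgf was at 4.45, 13.7 and 4.85 CPM against 3.24, 5.74 and 3.81 CPM (-0.82 and edgeR BH-adjusted p = 0.395 unblocked, -0.68 and 0.0473 with the block). Pcsk1 was at 3.77, 2.07 and 4.15 CPM against 5.58, 3.82 and 4.64 CPM and passed neither fit. The remaining tested members, among them Sst, Npy, Vip, Tac1, Tac2, Adcyap1, Nts, Nppc, Crhbp and Pam, passed neither fit.

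Whether the response to shNup153_2 differed between states was tested as an interaction, the silenced log2 fold change minus the basal one. None of 32 members passed, 9 had an unadjusted p under 0.05, and 0 of all 20926 genes passed (0% called in either direction). Vgf had the smallest p among the members, with a log2 difference of -3.94 (SE 0.67, edgeR BH-adjusted p = 0.093). Pcsk1 was at -2.05 (SE 0.44, edgeR BH-adjusted p = 0.16) and Adcyap1 at -2.78 (SE 0.69, edgeR BH-adjusted p = 0.195). DESeq2 called Vgf (-3.93, adjusted p = 1.22e-05), Pcsk1 (-2.04, adjusted p = 0.00453) and Adcyap1 (-2.76, adjusted p = 0.00984) lower and Gal higher (3.29, adjusted p = 0.0469). Gal held 1 to 13 counts in the silenced shControl libraries and 3 to 18 in the silenced shNup153_2 libraries, so its value rests on few counts. The share of all genes that DESeq2 called for the interaction is not given here. With limma-voom, 0 members were called. With the replicate number as a block, Vgf passed (-4.21, SE 0.34, edgeR BH-adjusted p = 0.0307). That fit also pairs basal libraries by number, although same-numbered basal shControl and shNup153_2 residuals correlated at only 0.24 and 0.05. Basal shControl libraries without a same-numbered partner add nothing to its basal difference. The Vgf pass therefore rests on a basal pairing that the data did not show. Unblocked and without both silenced libraries numbered 2, no member passed in edgeR.

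Genes around the members were counted from lists written with earlier results of these data known. Their counts are to be read beside the shares of all genes called, which were 6.52% higher and 7.05% lower with shNup153_1, 5.91% and 3.64% with shNup153_2 at basal state, 1.61% and 1.83% in silenced cultures, and 6.09% and 6.27% between states. For shNup153_1, the 10% of receptor genes and 11.1% of vesicle genes called in either direction were no more than the share of all genes. Of 30 peptide receptor genes tested with shNup153_1, 1 rose (the somatostatin receptor Sstr3, 2.01, SE 0.34) and 2 fell (the PACAP receptor Adcyap1r1, -1.18, and Trhr, -2.74). Of 31 tested with shNup153_2 at basal state, 6 rose and 0 fell, among them Sstr3 (2.56, SE 0.34), the sorting receptor Sort1 (1.20, SE 0.18), the cholecystokinin receptor Cckbr (1.58, SE 0.30) and Nmbr (1.48). In silenced cultures 3 of 28 rose with shNup153_2, namely Oprl1 (0.51), Sort1 (0.63) and Cckbr (2.48). Between states, 9 of 31 receptors were lower and 2 higher in silenced shControl cultures, with Cckbr at -2.93 and Oprl1 at 0.83.

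Of 22 other processing genes, 3 rose and 3 fell with shNup153_1, and 3 rose and 0 fell with shNup153_2 at basal state. Furin, a convertase of the constitutive pathway, rose by 1.22 (SE 0.18, edgeR BH-adjusted p = 0.00519) and by 2.27 (SE 0.16, edgeR BH-adjusted p = 0.00168), and by 1.29 (SE 0.19, edgeR BH-adjusted p = 0.0229) in silenced cultures. Ece1 and Qpctl, which encode a peptidase and a glutaminyl cyclase, rose by 1.37 and 1.02 with shNup153_2 at basal state and by 0.89 and 0.63 under silencing. With shNup153_1 Cpd (-1.66) and Pcsk6 (-1.70) fell. Of the genes for dense-core vesicle formation and release, 0 of 36 rose and 4 fell with shNup153_1, and 3 of 37 rose and 4 fell with shNup153_2. Syt9, a calcium sensor of vesicle release, changed by -1.83 (SE 0.21) and -1.64 (SE 0.22) at basal state and by -1.44 (SE 0.28) in silenced cultures, and Cadps2, a priming factor, by -1.89 and -2.11 with shNup153_2 in the 2 states. Of 9 to 12 further neuropeptide genes tested per comparison at basal state or between states, 0 passed with shNup153_1, 1 fell with shNup153_2 (Ucn2) and 4 were lower in silenced shControl cultures (Pthlh, Calca, Prok2 and Adm).

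Over all comparisons, 18 of 32 members passed edgeR's unblocked test at least once and 14 did not. The share of all genes that passed at least once was not counted, so the 18 cannot be set against it. Of these 14, the blocked fit of silenced cultures called 8 (Cck, Pdyn, Grp, Chgb, Pcsk2 and Pcsk1n higher, Scg5 and Cpe lower), and Vip, Cort, Pnoc, Trh, Nmb and Chga passed neither. Trh was at 0.502 to 1.02 CPM and Nmb at 1.54 to 2.19 CPM in basal shControl, and 20.6% of the exon length of Nmb is shared with Sec11a on the same strand. Cort, the cortistatin precursor, ranged from 0.62 to 5.41 CPM within basal shControl alone, a spread wider than its difference from either hairpin group's mean. A missed threshold does not show that levels were equal.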

How the data were processed

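The labels list 16 samples of poly(A) RNA sequenced as paired reads of 100 bases, of which 14 libraries in 5 groups were used. Per the submitters' processing notes, the authors used FastQC and featureCounts 2.0.1 with mm10, and the deposited tables hold raw counts per gene. An aligner, annotation version or strand setting was not given in the sources used here. At basal state, 2 columns share a name, could be given to no sample and were not used, which leaves 2 libraries per hairpin. The basal shNup153_1 columns do not line up with the symbols in the lower part of their table (correlation with shControl 0.9745 over the first 16399 rows and 0.0959 over the 9972 rows after). Comparisons with shNup153_1 used the first 16399 rows, which hold all members (highest row 14590), and other fits left these columns out.

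Counts were fitted in R 4.3.3 with edgeR 4.0.16 (filterByExpr with a minimum count of 10, TMM, quasi-likelihood F test, BH over all genes tested, FDR 0.05). The basal shNup153_1 comparisons used the 3 basal groups, basal shNup153_2 used the basal shControl and shNup153_2 groups, the silenced groups were fitted alone, and states and interaction came from a joint fit without shNup153_1. DESeq2 1.42.0, limma-voom (limma 3.58.1) and the settings in the closing section were alternatives. The fits were also run on simulated counts with the same spread for all genes and no pairing of libraries. That run does not show how they behave on these data. Exon lengths and overlaps come from GENCODE M21. Motifs were searched in RefSeq windows.

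Residuals of same-numbered silenced libraries correlated at 0.29, 0.57 and 0.62, so numbers were treated as pairing there, although the labels do not say that they share a litter. At basal state, same-numbered shControl and hairpin libraries correlated at -0.6 and -0.66 for shNup153_1 and at 0.24 and 0.05 for shNup153_2. Numbers were therefore not treated as pairing there. Residuals of 2 libraries in a group mirror each other by construction. For shNup153_1, replicate 1 correlated with shControl replicates 2 and 4 (0.66 and 0.39), and replicate 2 with shControl replicates 1 and 3 (0.6 and 0.56). Each replicate is a litter per the labels.

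The members and lists were chosen with earlier results of these data known. Named genes are members past FDR in any comparison, the member with the smallest p in a role group where none passed, and up to 4 genes per other list and comparison with the smallest p. Values given for further members were chosen after they were seen.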

Additional observations from a re-analysis of the deposited data

Results flagged for a closer look

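Each of the 32 members was examined for a library far from the rest of its group in basal shControl, the only group with 4 libraries. Npy in replicate 4 stood at 84.7 CPM against 35.9 to 40.4 CPM in the other 3, a gap of 0.906 of the group's range. By chance about 1 of 20 groups passes the limit used, and the members' values in a library are not independent. The lower Npy level in silenced shControl cultures passed without replicate 4 as well.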

How the results depend on the processing

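No member's called direction reversed under any setting. Counts below are members past FDR, rising then falling where 2 are given. The share of all genes called also changes with the setting. For the silenced knockdown it was 1.61% higher and 1.83% lower unblocked, and 11.7% and 10.3% with the block. For most other settings the share is not given, so these counts say nothing particular to the members. With the replicate number as a block, which pairs basal libraries by number alone, counts were 0 and 0 for basal shNup153_1, 5 falling for basal shNup153_2, 0 and 0 between hairpins, 7 and 4 for the silenced knockdown and 1 falling for the interaction. The block moved no other count by over 1.5 times. DESeq2 gave 4 falling for basal shNup153_2, 4 and 5 between hairpins, 2 rising for the silenced knockdown, and 1 and 3 for the interaction. Testing without the filter on low counts gave 1 rising for the silenced knockdown. Fitting only the groups compared gave 1 falling for basal shNup153_1 and 8 falling between states. Without shControl 2 and 4 the rising counts were 15 and 9 with the hairpins, and without shControl 1 and 3 there were 12 falling with shNup153_2 (both added after seeing the data). The cause of these shifts was not tested.

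With each library left out in turn, counts ranged from 1 to 5 rising and 0 to 2 falling for basal shNup153_1, 0 to 6 and 0 to 4 for basal shNup153_2, 0 to 1 and 0 to 1 between hairpins, 0 to 1 falling for the silenced knockdown and 8 to 15 falling between states. Where 1 library remains in a group, it is assumed to vary like the other groups. Low depth limits 7 members, Gal, Cartpt, Crh, Trh, Nts, Cort and Pomc, which held at most 20 counts in 5 or more of 14 libraries.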
